A study of Mus musculus with 24 samples.

Results

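The 10 genes described here are feedback regulators of the ERK pathway and *ETV* transcription factors, measured by RNA-seq in MS03 cells after treatment with drugs against focal adhesion kinase (FAK). They are the phosphatase genes *Dusp4*, *Dusp5* and *Dusp6*, the Sprouty genes *Spry1*, *Spry2* and *Spry4*, the Sprouty-related *Spred1*, the ETS factors *Etv4* and *Etv5*, and *Phlda1*. They were listed by name, with no threshold on their values but with earlier results of these data known, and all 10 were found among the 49315 genes of the count table. MS03 is an immortalized Schwann cell (SC) line that came from an *Nf2* flox/flox mouse and was made *Nf2*-/- by Cre in culture, so every group below, DMSO included, lacks *Nf2* and shares this 1 line. Cells received dimethyl sulfoxide (DMSO, the solvent), the FAK kinase inhibitors defactinib, VS-4718, GSK2256098 or IN10018 (named ifebemtinib in the paper) at 1 μM each, or the FAK-directed proteolysis-targeting chimeras (PROTACs) PROTAC FAK degrader 1 at 1 μM, GSK215 at 0.1 μM or BSJ-04-0146 at 0.1 μM. All were collected after 24 hours, with 3 biological replicates per group and 24 libraries in all.

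ERK is the last kinase of the RAS, RAF, MEK and ERK cascade, which carries signals from growth factor receptors to the nucleus. Active ERK raises the transcription of its own inhibitors: DUSP phosphatases that remove phosphate from ERK, and Sprouty and Spred proteins that act upstream at the level of receptors, RAS and RAF. The ETS factors ETV4 and ETV5, of the PEA3 family, are induced by the same signal, and transcripts of this kind are widely used as a readout of MEK and ERK output. FAK is a non-receptor tyrosine kinase of integrin adhesions that feeds into the same cascade, and a PROTAC joins a ligand of its target to a ligand of an E3 ubiquitin ligase so that the target is degraded. The study evaluated FAK inhibition alone and together with MEK inhibition, so each comparison with DMSO asks how transcripts that follow ERK output stood after FAK was inhibited or degraded. ERK phosphorylation was not measured in these libraries. In the paper, sciatic nerves of mice treated with VS-4718 held more phosphorylated ERK than those of vehicle controls by Western blot. That is another tissue and treatment time than here.

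Total counts ranged from 14472462 to 27449516 per library. The PROTAC libraries, at 14472462 to 21588406, lay below the others, at 21654444 to 27449516. Mitochondrial genes took 3.03% to 3.06% of counts with DMSO, 1.85% to 1.89% with PROTAC FAK degrader 1, 2.62% to 2.80% with IN10018, 3.01% to 3.14% with VS-4718, 3.22% to 3.35% with GSK2256098, 3.42% to 3.89% with defactinib, 3.34% to 4.10% with BSJ-04-0146 and 3.83% to 4.25% with GSK215. *Sox10*, a defining SC factor, was at 20.1 ± 0.317 CPM (SD, n = 3) with DMSO, whereas the mature SC genes *S100b* and *Egr2* had at most 18 counts in any library. The summed level of 10 SC markers was 56.4 to 59.9 CPM with DMSO, 117 to 132 CPM with VS-4718, 235 to 247 CPM with GSK215, 213 to 233 CPM with BSJ-04-0146 and 51.0 to 87.6 CPM in the other 4 drug groups. Of 6 macrophage markers, *Ptprc*, *Adgre1* and *Itgam* had at most 1 count in any library, *Aif1* at most 10, *Csf1r* 3 to 20 and *Cd68* 65 to 239. Their summed level, mostly *Cd68*, was 3.71 to 4.10 CPM with DMSO, 11.2 to 12.0 CPM with PROTAC FAK degrader 1, 7.90 to 9.34 CPM with BSJ-04-0146, 6.20 to 7.88 CPM with GSK215, 5.20 to 6.21 CPM with VS-4718 and 3.79 to 5.28 CPM in the other 3 drug groups. Of 6 fibroblast markers, *Lum*, *Dcn* and *Thy1* had at most 3 counts. The summed fibroblast markers, carried by *Col1a1* and *Col1a2*, were at 1732 to 1776 CPM with DMSO, 994 to 1008 CPM with PROTAC FAK degrader 1, 1334 to 1410 CPM with BSJ-04-0146, 1516 to 1585 CPM with VS-4718, 1581 to 1648 CPM with IN10018, 1631 to 1684 CPM with GSK215 and 1761 to 1824 CPM with GSK2256098 and defactinib. Whether these shifts have a part in the results below was not tested, and in bulk RNA fewer cells of a type and less RNA per cell cannot be told apart. *Ptk2*, which encodes FAK, is not a check of the labels, since the kinase inhibitors block the protein and the PROTACs remove it. Its transcript fell with GSK215 (log2 fold change −0.29), BSJ-04-0146 (−0.26), VS-4718 (−0.18), defactinib (−0.14) and GSK2256098 (−0.13), and the test was not passed with IN10018 (log2 fold change −0.072) or PROTAC FAK degrader 1 (0.034).

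All 10 genes passed the filter on low counts, with 45 to 2735 counts per gene and library. Per kilobase of annotated exon, which allows levels of different genes to be compared, the order in DMSO-treated cells ran from *Etv4* at 32.7 CPM per kb through *Phlda1* (25.3), *Spry1* (21.7), *Dusp4* (14.8), *Etv5* (14.6), *Spry2* (13.1), *Dusp6* (11.8), *Spred1* (11.4) and *Dusp5* (6.30) to *Spry4* at 1.34. *Spry4* was thus the gene with the fewest reads and the widest errors, with a standard deviation within groups of 0.11 on the log2(CPM + 4) scale against 0.047 to 0.079 for the other 9. In the GENCODE M21 annotation, exons of *Dusp5*, *Spry1* and *Phlda1* overlap a gene on the opposite strand. The strand setting of the counts is not given in the sources used here, so reads of such partners may not be separated. The partners of *Spry1* and *Phlda1* had 9 to 37 and 0 to 5 counts per library. That of *Dusp5* was not among the genes of the count table, so its reads could not be checked.

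Each drug was compared with DMSO in a single edgeR quasi-likelihood model of all 24 libraries, with *P* values corrected for the 16070 genes tested and a call at an adjusted p under 0.05. The same 3 DMSO libraries served all 7 comparisons. The PROTACs and VS-4718 moved most of the 10 genes, mostly down, whereas the 3 other kinase inhibitors moved fewer. GSK215 lowered 8 genes and raised 1, where 27.2% of all tested genes were called lower and 27.4% higher (54.7% in either direction). VS-4718 lowered 7 and raised 1, against 18.9% and 20.4% of all genes (39.2% in either direction). PROTAC FAK degrader 1 lowered 7 and raised 2, beside 32.7% and 34.1% of all genes (66.8% in either direction), so its 9 of 10 genes are read against a high background. BSJ-04-0146 lowered 7 and raised 1, beside 26.9% and 27.7% (54.6% in either direction). With library totals in place of TMM, BSJ-04-0146 had 3 lower and 3 higher, where 18.5% of all genes were lower and 37.4% higher, and GSK215 had 7 lower and 2 higher, where 17.8% and 38.5% were. BSJ-04-0146 had 5 lower and 1 higher with DESeq2 (4087 and 3855 of all genes), and also 5 lower without DMSO replicate 1 or BSJ-04-0146 replicate 2 or 3 (4157, 4103 and 4119 of all genes). Among the remaining inhibitors, GSK2256098 lowered 3 and raised 1 (6.09% and 6.36% of all genes, 12.5% in either direction). It had 1 lower and 0 higher without DMSO replicate 3 (791 and 713 of all genes), and 2 lower and 0 higher without GSK2256098 replicate 2 or 3 (678 and 689 of all genes lower, 717 and 609 higher). IN10018 raised 3 and lowered 0 (6.44% and 6.85%, 13.3% in either direction). It had 1 higher with DESeq2 and without DMSO replicate 1 or IN10018 replicate 1, where 839, 784 and 652 of all genes were higher. Defactinib lowered only *Dusp4* and raised 0 (11.0% and 11.4%, 22.4% in either direction). For the directions with 0 calls by edgeR, DESeq2 and limma-trend also gave 0, and at an unadjusted p under 0.05 there was 1 gene lower with IN10018 (*Spry1*) and 0 higher with defactinib. The median log2 fold change over the 10 genes was −0.38 with VS-4718, −0.33 with GSK215, −0.28 with PROTAC FAK degrader 1, −0.19 with BSJ-04-0146, −0.12 with GSK2256098, 0.025 with defactinib and 0.076 with IN10018. Over all tested genes the medians lay between −0.0044 and 0.021.

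**Figure D1:**
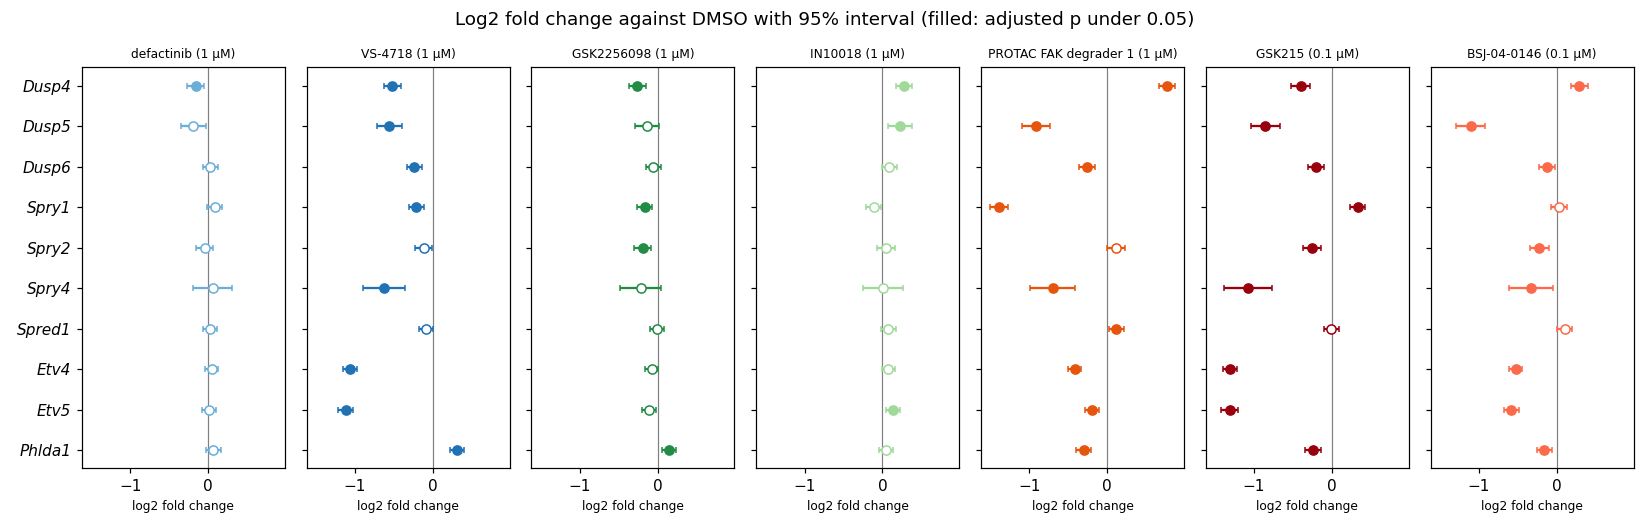
Log2 fold change of each gene against DMSO for the 7 drugs, with the dose above each panel. Points are edgeR estimates, horizontal bars are 95% intervals, and filled points passed an adjusted p of 0.05. *Etv4* and *Etv5* stand at or beyond −1 with VS-4718 and GSK215, and all points of defactinib lie near 0.

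*Etv4* and *Etv5*, the PEA3 family factors, gave the clearest separation between drugs. *Etv4* (ENSMUSG00000017724, minus strand, chr11:101769742-101785371 of GRCm38) was at 102, 103 and 99.7 CPM in the 3 DMSO libraries. It stood at 50.0, 50.9 and 45.1 CPM with VS-4718 and at 40.2, 40.0 and 42.6 CPM with GSK215. No library of either drug came near the DMSO range, and the group means were 47.9% and 40.3% of the DMSO mean (VS-4718, log2 fold change −1.06, standard error 0.0425, edgeR adjusted p = 3.25e-22; GSK215, log2 fold change −1.31, standard error 0.0457, edgeR adjusted p = 7.72e-25). BSJ-04-0146 left *Etv4* at 69.0, 71.0 and 71.2 CPM and PROTAC FAK degrader 1 at 80.0, 74.4 and 73.2 CPM, an intermediate level below every DMSO library (BSJ-04-0146, log2 fold change −0.53, standard error 0.0425, edgeR adjusted p = 1.12e-13; PROTAC FAK degrader 1, log2 fold change −0.42, standard error 0.0414, edgeR adjusted p = 1.47e-11). With defactinib the gene was at 99.8, 108 and 106 CPM, a range that overlaps that of DMSO (log2 fold change 0.045, 95% interval −0.035 to 0.13, edgeR adjusted p = 0.47). GSK2256098 gave 97.9, 94.3 and 96.6 CPM and IN10018 109, 103 and 109 CPM. These 2 groups lay just below and just above the DMSO libraries without passing the test (GSK2256098, log2 fold change −0.076, 95% interval −0.16 to 0.0046, edgeR adjusted p = 0.24; IN10018, log2 fold change 0.076, 95% interval −0.0041 to 0.16, edgeR adjusted p = 0.22). In the order of the 8 group means, IN10018 overlapped defactinib and defactinib overlapped DMSO, and from DMSO downward through GSK2256098, PROTAC FAK degrader 1, BSJ-04-0146, VS-4718 and GSK215 each group was separate from the next.

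*Etv5* (ENSMUSG00000013089, minus strand, chr16:22381309-22439719) followed the same order of groups. It was at 58.8, 59.0 and 62.3 CPM with DMSO, 27.1, 27.8 and 28.0 CPM with VS-4718 and 25.0, 23.8 and 23.8 CPM with GSK215. All 6 of these treated libraries lay below every library of the other groups (VS-4718, log2 fold change −1.12, standard error 0.0483, edgeR adjusted p = 3.76e-21; GSK215, log2 fold change −1.31, standard error 0.0524, edgeR adjusted p = 5.74e-23). BSJ-04-0146 gave 38.1, 40.2 and 42.0 CPM (log2 fold change −0.58, standard error 0.0484, edgeR adjusted p = 2.81e-13), and PROTAC FAK degrader 1 gave 53.4, 54.5 and 49.2 CPM (log2 fold change −0.20, standard error 0.0457, edgeR adjusted p = 0.000269). Where PROTAC FAK degrader 1 lowered *Etv4* to 74.8% of DMSO, it lowered *Etv5* to 87.3%. IN10018 raised *Etv5* slightly, to 68.9, 65.0 and 64.5 CPM (log2 fold change 0.14, standard error 0.044, edgeR adjusted p = 0.0287). This call was lost with DESeq2 (adjusted p = 0.0506) and without DMSO replicate 1, DMSO replicate 2 or IN10018 replicate 1 (edgeR adjusted p = 0.113, 0.122 and 0.191, and 0.0119 to 0.191 across the 12 alternatives). Defactinib, at 60.7, 57.0 and 63.9 CPM, and GSK2256098, at 56.5, 55.6 and 55.0 CPM, did not pass the test (defactinib, log2 fold change 0.014, 95% interval −0.075 to 0.10, edgeR adjusted p = 0.866; GSK2256098, log2 fold change −0.11, 95% interval −0.20 to −0.018, edgeR adjusted p = 0.114). The value for GSK2256098 passed when only its 6 libraries were fitted (edgeR adjusted p = 0.0348, and 0.0348 to 0.34 across the 12 alternatives). Ranked among the 16070 genes from the largest decrease, *Etv5* and *Etv4* were the 144th and 147th with GSK215 and the 191st and 219th with VS-4718.

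**Figure D2:**
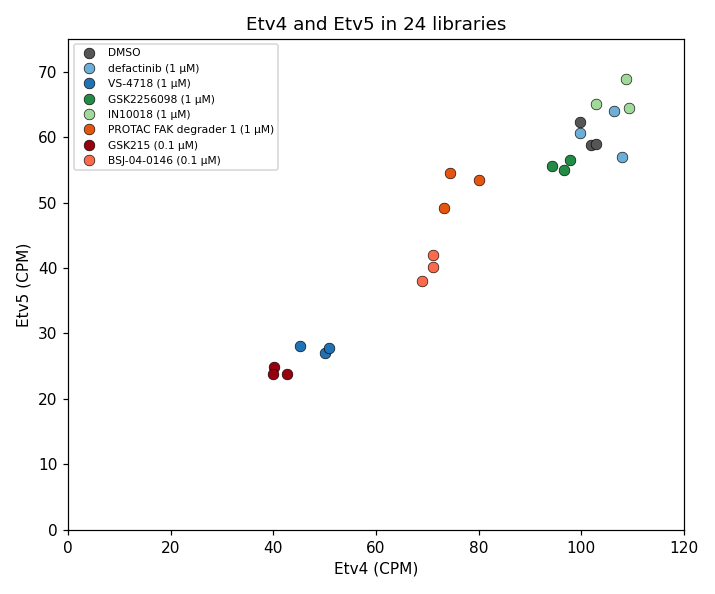
*Etv5* against *Etv4* in CPM for the 24 libraries, coloured by treatment. The 3 GSK215 and 3 VS-4718 libraries sit at 40.0 to 50.9 CPM of *Etv4* and 23.8 to 28.0 CPM of *Etv5*, the BSJ-04-0146 and PROTAC FAK degrader 1 libraries sit between these and DMSO, and the defactinib, GSK2256098 and IN10018 libraries sit near DMSO.

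The likeness of the 7 log2 fold changes of a pair of genes was measured as their root mean square difference, over the genes with a symbol and a mean of at least 5 CPM (10278). By this measure *Etv4* and *Etv5* were each other's nearest gene of all compared, at 0.094, and also the closest of the 45 pairs among the 10 genes. The second nearest gene to both was *Nmnat2*, at 0.23 from *Etv4* and 0.21 from *Etv5*. The 7 fold changes share their DMSO libraries, so that error in these moves all of them together.

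Of the 3 phosphatase genes, *Dusp5* fell with the PROTACs and VS-4718, *Dusp4* moved in both directions, and *Dusp6* changed little. *Dusp5* encodes a nuclear phosphatase specific for ERK (ENSMUSG00000034765, plus strand, chr19:53529109-53542431). It was at 15.8, 16.6 and 14.3 CPM with DMSO, 6.90, 7.70 and 7.09 CPM with BSJ-04-0146, 7.72, 7.72 and 9.45 CPM with PROTAC FAK degrader 1 and 7.94, 9.29 and 8.54 CPM with GSK215. The highest PROTAC library, at 9.45 CPM, lay well below the lowest DMSO library, at 14.3 CPM (BSJ-04-0146, log2 fold change −1.11, standard error 0.0929, edgeR adjusted p = 3.45e-13; PROTAC FAK degrader 1, log2 fold change −0.91, standard error 0.0879, edgeR adjusted p = 6.73e-12; GSK215, log2 fold change −0.85, standard error 0.0891, edgeR adjusted p = 1.13e-10). VS-4718 gave a smaller decrease, to 11.5, 10.0 and 10.1 CPM (log2 fold change −0.56, standard error 0.0808, edgeR adjusted p = 4.38e-07). Defactinib was at 13.0, 13.9 and 14.0 CPM and GSK2256098 at 14.2, 15.2 and 13.1 CPM, and neither passed the test (defactinib, log2 fold change −0.19, 95% interval −0.35 to −0.033, edgeR adjusted p = 0.0755; GSK2256098, log2 fold change −0.14, 95% interval −0.29 to 0.023, edgeR adjusted p = 0.294). The value for defactinib passed without DMSO replicate 3 (edgeR adjusted p = 0.0356, and 0.0356 to 0.303 across the 12 alternatives). IN10018 was the only group above DMSO, at 19.2, 17.2 and 18.1 CPM (log2 fold change 0.22, standard error 0.0763, edgeR adjusted p = 0.0479). That call was lost in 8 of 12 alternatives, among them DESeq2 (adjusted p = 0.107), the replicate block (edgeR adjusted p = 0.0553) and the fits without DMSO replicate 1 or 3 or IN10018 replicate 1 or 3 (edgeR adjusted p = 0.0901, 0.252, 0.224 and 0.11, and 0.027 to 0.252 across the 12 alternatives). The genes nearest to *Dusp5* in the 7 log2 fold changes were *Noct*, at a root mean square difference of 0.13, and *Faap24*, at 0.14.

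*Dusp4* encodes a nuclear phosphatase that acts on ERK and on the stress kinases JNK and p38 (ENSMUSG00000031530, plus strand, chr8:34807297-34819894). It was at 40.4, 40.3 and 41.0 CPM with DMSO. PROTAC FAK degrader 1 raised it to 68.9, 69.7 and 68.1 CPM, the highest level of any group (log2 fold change 0.76, standard error 0.0509, edgeR adjusted p = 1.82e-16). BSJ-04-0146, at 47.9, 49.2 and 51.8 CPM, and IN10018, at 47.8, 47.2 and 52.4 CPM, also lay above all DMSO libraries (BSJ-04-0146, log2 fold change 0.29, standard error 0.0538, edgeR adjusted p = 1.52e-05; IN10018, log2 fold change 0.28, standard error 0.0524, edgeR adjusted p = 0.000297). The other 4 drugs lowered it. VS-4718 gave 29.3, 28.3 and 27.3 CPM (log2 fold change −0.52, standard error 0.0553, edgeR adjusted p = 5.21e-10) and GSK215 27.9, 30.3 and 33.3 CPM (log2 fold change −0.40, standard error 0.0576, edgeR adjusted p = 1.33e-07), with overlapping ranges at the bottom of the order. GSK2256098 gave 32.8, 34.1 and 34.8 CPM (log2 fold change −0.26, standard error 0.0546, edgeR adjusted p = 0.000898). Defactinib gave 33.1, 38.7 and 37.4 CPM (log2 fold change −0.16, standard error 0.0539, edgeR adjusted p = 0.0311), a call that was lost with library totals in place of TMM (edgeR adjusted p = 0.0579) and without DMSO replicate 1, 2 or 3 or defactinib replicate 1 (edgeR adjusted p = 0.0604, 0.0641, 0.0789 and 0.257, and 0.0138 to 0.257 across the 12 alternatives).

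*Dusp6*, the cytoplasmic phosphatase selective for ERK (ENSMUSG00000019960, plus strand, chr10:99263231-99267489), spanned a ratio of only 1.27 between its highest and lowest group means. It was at 37.0, 37.6 and 35.9 CPM with DMSO, 30.6, 30.7 and 31.1 CPM with PROTAC FAK degrader 1 and 30.0, 32.0 and 31.8 CPM with VS-4718. These 2 drugs lowered it in every library (log2 fold change −0.26, standard error 0.0502, edgeR adjusted p = 2.19e-05 for PROTAC FAK degrader 1; log2 fold change −0.24, standard error 0.0484, edgeR adjusted p = 0.000115 for VS-4718). GSK215 gave 33.0, 31.5 and 31.3 CPM (log2 fold change −0.21, standard error 0.0508, edgeR adjusted p = 0.000581), and this call was lost with library totals in place of TMM (log2 fold change −0.086, edgeR adjusted p = 0.151, and 0.000632 to 0.151 across the 12 alternatives). Under that scaling all genes had a median log2 fold change of 0.14 for GSK215 and 0.13 for BSJ-04-0146. BSJ-04-0146, at 37.0, 31.6 and 33.1 CPM, overlapped DMSO (log2 fold change −0.12, standard error 0.0505, edgeR adjusted p = 0.0414). Its call was lost in 7 of 12 alternatives: with DESeq2 and library totals, in the fit of 6 libraries (adjusted p = 0.0793, 0.86 and 0.0774), and without DMSO replicate 1 or 2 or BSJ-04-0146 replicate 2 or 3 (edgeR adjusted p = 0.0698, 0.129, 0.287 and 0.114, and 0.00314 to 0.86 across the 12 alternatives). Defactinib, GSK2256098 and IN10018 did not pass the test, with 95% intervals of −0.069 to 0.12, −0.15 to 0.042 and −0.0096 to 0.18.

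The Sprouty genes, whose proteins restrain signalling from receptor tyrosine kinases to RAS and ERK, did not share a pattern. *Spry1* (ENSMUSG00000037211, plus strand, chr3:37639947-37644598) had the widest span of the 10 genes, with a ratio of 3.29 between its highest and lowest group means. It was at 60.9, 61.4 and 66.9 CPM with DMSO, 25.3, 23.0 and 23.8 CPM with PROTAC FAK degrader 1 and 76.4, 81.5 and 79.2 CPM with GSK215. PROTAC FAK degrader 1 thus lowered it 2.62-fold (log2 fold change −1.39, standard error 0.0549, edgeR adjusted p = 1.19e-23), whereas GSK215 raised it 1.25-fold (log2 fold change 0.33, standard error 0.047, edgeR adjusted p = 1.51e-07). Between these extremes the other 6 groups formed a chain of overlapping ranges from 51.3 to 69.3 CPM. Within it, VS-4718, at 56.7, 55.1 and 51.3 CPM, and GSK2256098, at 56.6, 55.3 and 56.3 CPM, were below all DMSO libraries (VS-4718, log2 fold change −0.21, standard error 0.0471, edgeR adjusted p = 0.000301; GSK2256098, log2 fold change −0.17, standard error 0.0475, edgeR adjusted p = 0.0139). The call for GSK2256098 was lost without DMSO replicate 3 or GSK2256098 replicate 2 (adjusted p by edgeR 0.118 and 0.0554, and 0.0018 to 0.118 across the 12 alternatives). Defactinib, IN10018 and BSJ-04-0146 did not pass the test, with 95% intervals of −0.0097 to 0.18, −0.21 to −0.014 and −0.070 to 0.13. The last of these passed with library totals, where the log2 fold change of 0.14 (edgeR adjusted p = 0.0125, and 0.0125 to 1 across the 12 alternatives) was close to the median shift of all genes. Beside the fall of *Spry1* with PROTAC FAK degrader 1 stand the lower summed fibroblast markers and mitochondrial share of the same 3 libraries, whose part in it was not tested. The genes nearest to *Spry1* in the 7 log2 fold changes were *Cyb561d2*, at a root mean square difference of 0.092, and *Mir17hg*, at 0.16.

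*Spry4* (ENSMUSG00000024427, minus strand, chr18:38586247-38601415) behaved more like the *ETV* genes. Its libraries read 7.64, 6.02 and 5.48 CPM with DMSO, 2.95, 3.69 and 2.37 CPM with GSK215, 3.77, 4.33 and 3.62 CPM with PROTAC FAK degrader 1 and 4.34, 4.50 and 3.53 CPM with VS-4718. All 9 treated libraries lay below all 3 of DMSO (GSK215, log2 fold change −1.08, standard error 0.152, edgeR adjusted p = 9.69e-08; PROTAC FAK degrader 1, log2 fold change −0.70, standard error 0.141, edgeR adjusted p = 3.51e-05; VS-4718, log2 fold change −0.63, standard error 0.134, edgeR adjusted p = 0.000214). BSJ-04-0146, at 5.78, 4.23 and 5.20 CPM, overlapped DMSO (log2 fold change −0.33, standard error 0.138, edgeR adjusted p = 0.0415). That call was lost with DESeq2 and library totals (adjusted p = 0.0952 and 0.177) and without DMSO replicate 1 or BSJ-04-0146 replicate 2 or 3 (edgeR adjusted p = 0.286, 0.255 and 0.0607, and 0.0138 to 0.286 across the 12 alternatives). Defactinib, GSK2256098 and IN10018 did not pass the test. Their 95% intervals of −0.20 to 0.31, −0.48 to 0.044 and −0.25 to 0.27 are wide, at 113 to 176 counts per library in these groups and DMSO. *Stard4* and *Lss* were nearest to it in the 7 log2 fold changes, at root mean square differences of 0.14 and 0.15.

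*Spry2* (ENSMUSG00000022114, minus strand, chr14:105891947-105896819) changed little, its largest log2 fold change being −0.26 with GSK215. It was at 26.5 to 28.7 CPM with DMSO and fell with GSK215 (21.6 to 24.4 CPM, log2 fold change −0.26, standard error 0.0587, edgeR adjusted p = 0.000253), BSJ-04-0146 (22.3 to 25.2 CPM, log2 fold change −0.22, standard error 0.0588, edgeR adjusted p = 0.00136) and GSK2256098 (23.6 to 24.3 CPM, log2 fold change −0.19, standard error 0.056, edgeR adjusted p = 0.017). The call for BSJ-04-0146 was lost with library totals (edgeR adjusted p = 0.0913, and 0.000337 to 0.0913 across the 12 alternatives). That for GSK2256098 was lost without DMSO replicate 3 or GSK2256098 replicate 3 (adjusted p by edgeR 0.105 and 0.0557, and 0.0136 to 0.105 across the 12 alternatives). Unlike *Spry1* and *Spry4*, it was not lower with PROTAC FAK degrader 1, at 28.4 to 30.2 CPM (log2 fold change 0.12, 95% interval 0.0029 to 0.23, edgeR adjusted p = 0.0652). This last value passed with library totals and without DMSO replicate 3 or PROTAC FAK degrader 1 replicate 2 (edgeR adjusted p = 0.00177, 0.0287 and 0.0404, and 0.00177 to 0.177 across the 12 alternatives). With VS-4718, *Spry2* was below all DMSO libraries at 24.1 to 25.8 CPM without passing the test (log2 fold change −0.12, 95% interval −0.23 to −0.0089, edgeR adjusted p = 0.0806). Defactinib and IN10018 did not pass it either, with 95% intervals of −0.16 to 0.068 and −0.068 to 0.16. *Spred1*, whose protein recruits the RAS inhibitor neurofibromin to the membrane (ENSMUSG00000027351, plus strand, chr2:117121374-117182279), was the least variable of the 10 genes, with a ratio of 1.15 between its highest and lowest group means. It was at 77.1 to 77.7 CPM with DMSO and 82.0 to 85.8 CPM with PROTAC FAK degrader 1, its only call with TMM and all libraries (log2 fold change 0.12, standard error 0.0462, edgeR adjusted p = 0.0243). That call was lost without DMSO replicate 3 or PROTAC FAK degrader 1 replicate 2 (edgeR adjusted p = 0.0564 and 0.0801, and 0.000302 to 0.0801 across the 12 alternatives). With the other 6 drugs its 95% intervals lay between −0.18 and 0.19. For BSJ-04-0146 the log2 fold change of 0.10 (edgeR adjusted p = 0.0699) passed with library totals, in the fit of 6 libraries and without BSJ-04-0146 replicate 3 (log2 fold change 0.21, 0.10 and 0.14, edgeR adjusted p = 0.000301, 0.0379 and 0.0238, and 0.000301 to 0.349 across the 12 alternatives). For VS-4718 that of −0.088 (edgeR adjusted p = 0.127) passed without VS-4718 replicate 3 (log2 fold change −0.15, edgeR adjusted p = 0.0133, and 0.0133 to 0.488 across the 12 alternatives). Its direction with GSK215 and GSK2256098 turned with library totals in place of TMM, where the log2 fold changes were 0.11 and 0.0030.

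*Phlda1*, a transcript of MEK and ERK output signatures that encodes a pleckstrin homology-like domain protein, was the only one of the 10 genes raised by VS-4718 (ENSMUSG00000020205, plus strand, chr10:111506286-111508645). It was at 58.6, 52.9 and 56.1 CPM with DMSO and rose to 74.5, 67.9 and 65.1 CPM with VS-4718 (log2 fold change 0.31, standard error 0.0447, edgeR adjusted p = 4.14e-07). All 3 PROTACs lowered it. PROTAC FAK degrader 1 gave 45.3, 43.9 and 46.4 CPM, GSK215 44.3, 48.0 and 48.6 CPM and BSJ-04-0146 50.4, 51.1 and 48.1 CPM, all below the DMSO range (PROTAC FAK degrader 1, log2 fold change −0.30, standard error 0.0483, edgeR adjusted p = 6.9e-07; GSK215, log2 fold change −0.24, standard error 0.0488, edgeR adjusted p = 4.45e-05; BSJ-04-0146, log2 fold change −0.16, standard error 0.0486, edgeR adjusted p = 0.00473). For BSJ-04-0146 the call was lost with library totals (edgeR adjusted p = 0.363, and 0.00083 to 0.363 across the 12 alternatives). GSK2256098 gave 61.0, 60.8 and 63.4 CPM (log2 fold change 0.14, standard error 0.0456, edgeR adjusted p = 0.0296), a call lost with DESeq2 (adjusted p = 0.0552) and in 5 of the 6 fits without a replicate, those without DMSO replicate 2 or 3 or GSK2256098 replicate 1, 2 or 3 (edgeR adjusted p = 0.223, 0.0763, 0.0556, 0.0595 and 0.161, and 0.00862 to 0.223 across the 12 alternatives). Defactinib and IN10018 did not pass the test, with 95% intervals of −0.026 to 0.16 and −0.048 to 0.14.

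**Figure D3:**
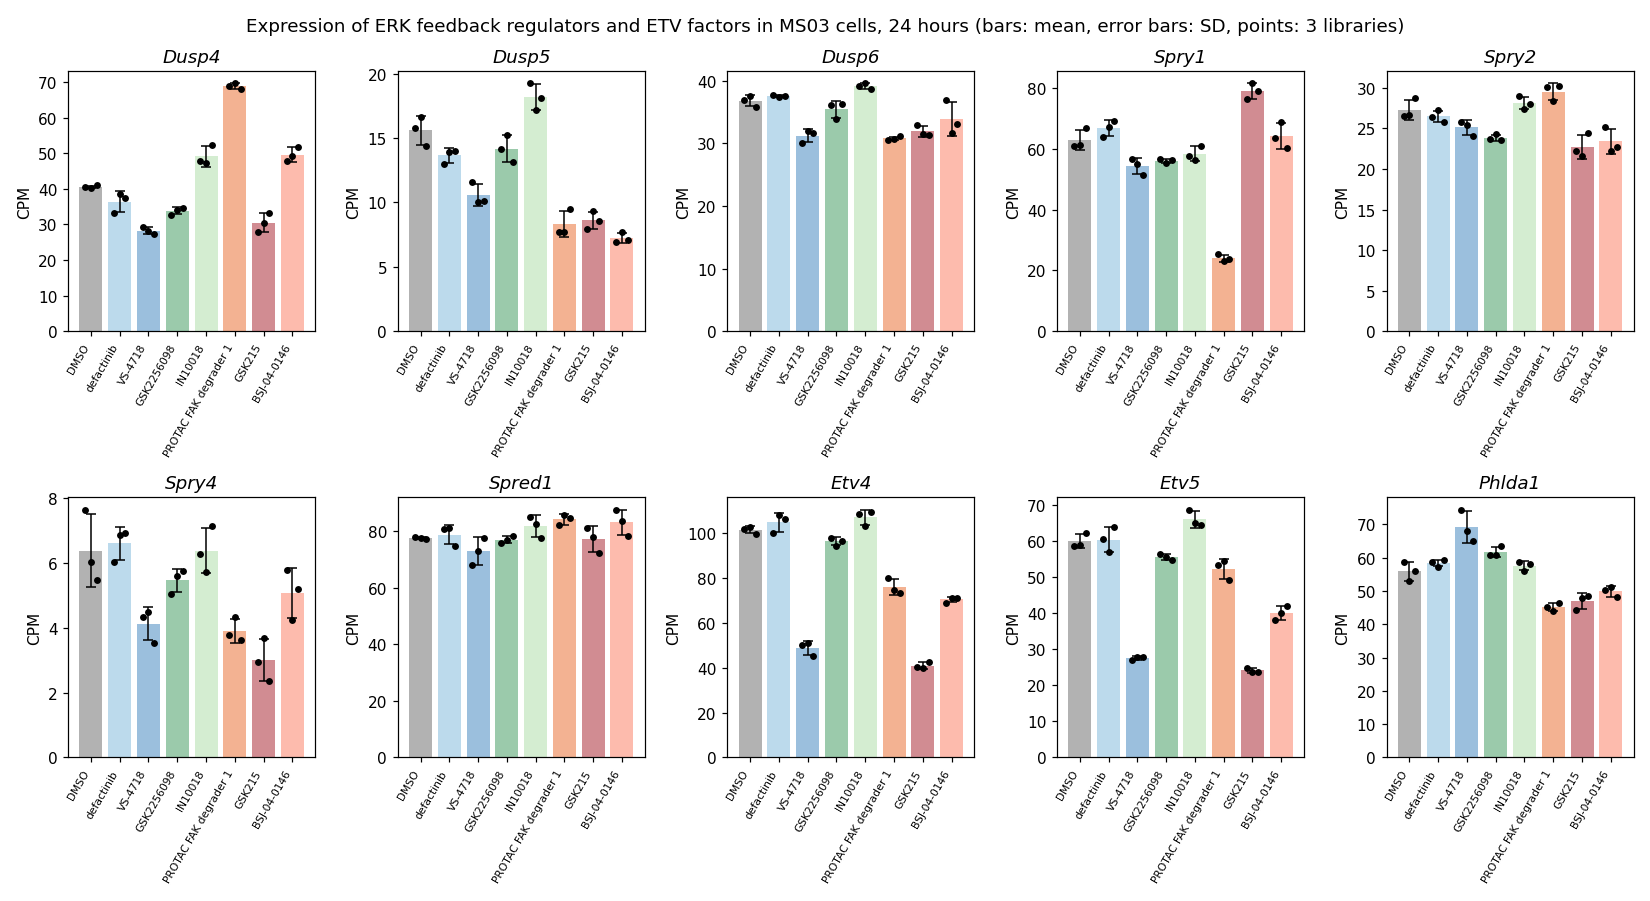
Expression of the 10 genes in CPM by treatment. Bars are means of 3 libraries, error bars are SD and points are libraries. *Etv4* and *Etv5* are lowest with VS-4718 and GSK215, *Dusp5* is lowest with the 3 PROTACs, *Spry1* is lowest with PROTAC FAK degrader 1, at 23.0 to 25.3 CPM, and the group means of *Spred1* and *Dusp6* differ by ratios of at most 1.15 and 1.27.

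Promoter sequences from RefSeq (build GRCm38.p6) were used for 6 of the 10 genes, and not for *Dusp4*, *Spry4*, *Etv4* and *Phlda1*. Windows of 200 bases, from 250 to 51 bases before the start in RefSeq, are shown for *Dusp5* and *Dusp6*, phosphatase genes that differed in their response to the PROTACs, and for *Spry1*, the gene with the widest span. All 3 lie on the plus strand, *Dusp5* at chr19:53528895-53529094, *Dusp6* at chr10:99262981-99263180 and *Spry1* at chr3:37639697-37639896. The RefSeq start of *Dusp5* lies downstream of the GENCODE start given above, and those of *Dusp6* and *Spry1* are the same in both. Capitals mark matches to the CArG box, to which serum response factor binds, or to the TEAD motif GGAATG.
Dusp5: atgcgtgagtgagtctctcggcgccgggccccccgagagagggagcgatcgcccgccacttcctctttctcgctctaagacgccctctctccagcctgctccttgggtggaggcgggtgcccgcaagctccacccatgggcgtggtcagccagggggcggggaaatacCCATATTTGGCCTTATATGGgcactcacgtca
Dusp6: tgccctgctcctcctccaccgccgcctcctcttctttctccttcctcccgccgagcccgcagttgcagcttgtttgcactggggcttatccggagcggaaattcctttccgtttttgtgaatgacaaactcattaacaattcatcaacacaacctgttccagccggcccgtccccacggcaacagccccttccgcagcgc
Spry1: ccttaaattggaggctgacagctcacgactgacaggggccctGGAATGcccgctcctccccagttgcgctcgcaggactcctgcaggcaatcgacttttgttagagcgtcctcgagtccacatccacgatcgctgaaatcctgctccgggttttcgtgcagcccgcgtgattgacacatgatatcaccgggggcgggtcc

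Both strands were searched for these motifs and for the ETS motif CCGGAAG, the AP-1 motif TGANTCA and the cyclic AMP response element TGACGTCA. The *Dusp5* window holds a pair of adjacent CArG boxes, at 82 to 73 and at 72 to 63 bases before the RefSeq start. A CArG box is found in 1.16% of 32851 such windows and at least 2 in 3 windows (0.00913%), this one included. The *Spry1* window holds 1 TEAD motif, at 208 to 203 bases before the start, as do 10.7% of windows. No match to any of the 5 motifs was found in the windows of *Dusp6*, *Spry2*, *Spred1* or *Etv5*. The ETS motif is found in 3.98% of windows, the AP-1 motif in 5.57% and the cyclic AMP response element in 0.828%. The CArG box was added to the search after the sequences had been seen, and these matches are descriptions of the letters only.

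Compounds given at the same dose were then compared directly, in 10 pairs among the 5 compounds at 1 μM and 1 pair at 0.1 μM, each with *P* values adjusted over 16070 genes. Defactinib and VS-4718 differed in 8 of the 10 genes (34.0% of all genes). *Etv4* and *Etv5* were 2.15-fold and 2.19-fold higher with defactinib (log2 difference 1.11, standard error 0.0425, edgeR adjusted p = 1.5e-22; 1.13, standard error 0.0484, adjusted p = 3.8e-21). *Spry4*, *Dusp5*, *Dusp4*, *Spry1* and *Dusp6* were also higher with defactinib, by 0.68, 0.37, 0.36, 0.30 and 0.27 on the log2 scale, and *Phlda1* was lower (−0.24). The pair did not pass the test for *Spry2* (95% interval of the log2 difference −0.036 to 0.19) or *Spred1* (0.018 to 0.20). The pair passed for *Spred1* without defactinib replicate 3 or VS-4718 replicate 3 (edgeR adjusted p = 0.0154 and 0.00609, and 0.00609 to 0.325 across the 12 alternatives). VS-4718 was also lower than GSK2256098 and IN10018 in *Etv4*, *Etv5*, *Dusp4*, *Dusp5*, *Dusp6* and *Spry4* and higher in *Phlda1*. These were all the 7 genes that differed from GSK2256098 (27.1% of all genes), and from IN10018 it differed in 9 (40.9%), *Spry2* and *Spred1* included. The log2 differences from the 2 drugs were −0.99 and −1.14 for *Etv4* and −1.01 and −1.26 for *Etv5* (edgeR adjusted p at most 7.87e-19). The call of *Spry4* against GSK2256098 was lost with DESeq2 and without VS-4718 replicate 3 or GSK2256098 replicate 2 or 3 (adjusted p = 0.0517, 0.132, 0.0669 and 0.0775, and 0.0159 to 0.132 across the 12 alternatives). That of *Phlda1* against GSK2256098 was lost without VS-4718 replicate 1 (edgeR adjusted p = 0.12, and 0.000851 to 0.12 across the alternatives), and that of *Spry2* against IN10018 without VS-4718 replicate 3 or IN10018 replicate 1 (edgeR adjusted p = 0.0648 and 0.061, and 0.0135 to 0.0648 across the alternatives). *Spry1* did not pass against either drug, and *Spred1* did not against GSK2256098, other than without VS-4718 replicate 3 (edgeR adjusted p = 0.0356, and 0.0356 to 0.675 across the alternatives). Against IN10018, *Spry1* passed without VS-4718 replicate 1 or IN10018 replicate 2 (edgeR adjusted p = 0.0305 and 0.0383, and 0.0305 to 0.283 across the alternatives).

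Defactinib, GSK2256098 and IN10018 were closer to each other. Defactinib and GSK2256098 differed in 2 genes, *Spry1* and *Etv4* (11.5% of all genes), defactinib and IN10018 in 4 (34.5%), and GSK2256098 and IN10018 in 6 (20.9%). The largest of these differences was that of *Dusp4* between GSK2256098 and IN10018 (log2 difference −0.54, edgeR adjusted p = 5.88e-10). *Dusp4* and *Dusp5* were lower than with IN10018 both with GSK2256098 (−0.54 and −0.36) and with defactinib (−0.43 and −0.41). The difference in *Etv4* between defactinib and GSK2256098 (log2 difference 0.12, edgeR adjusted p = 0.041) was lost in 8 of 12 alternatives (range of adjusted p 0.0211 to 0.159), which include the fits without defactinib replicate 2 or 3 or GSK2256098 replicate 1, 2 or 3 (edgeR adjusted p = 0.159, 0.129, 0.0621, 0.155 and 0.0833). The call of *Dusp6* between GSK2256098 and IN10018 was lost with DESeq2, without the filter and without GSK2256098 replicate 2 or IN10018 replicate 1 or 2 (adjusted p = 0.0521, 0.0658, 0.174, 0.0721 and 0.0791, and 0.0317 to 0.174 across the 12 alternatives). That of *Etv5* between defactinib and IN10018 was lost without defactinib replicate 1 or 2 or IN10018 replicate 1 (edgeR adjusted p = 0.051, 0.184 and 0.154, and 0.00678 to 0.184 across the alternatives). Between defactinib and GSK2256098 *Etv5* was not called, and it passed without defactinib replicate 2 (edgeR adjusted p = 0.024, and 0.024 to 0.353 across the alternatives).

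PROTAC FAK degrader 1 differed from defactinib in 9 genes (68.9% of all genes), from VS-4718 in 8 (68.9%), from GSK2256098 in 9 (67.6%) and from IN10018 in 8 (63.5%). *Spred1* was the gene not called against defactinib, and it passed with library totals and without defactinib replicate 1 or 2 or PROTAC FAK degrader 1 replicate 1 (edgeR adjusted p = 0.00303, 0.0459, 0.0435 and 0.0384, and 0.00303 to 0.29 across the alternatives). *Spred1* and *Spry2*, not called against IN10018, passed with library totals (edgeR adjusted p = 0.0316 and 0.0211, and 0.0316 to 0.901 and 0.0211 to 0.542 across the alternatives). In each of the 4 pairs *Spry1* was higher with the kinase inhibitor than with the PROTAC, by log2 differences of 1.18 to 1.47, and *Dusp4* was lower, by −1.28 to −0.49. Against VS-4718, the direction was split. *Etv4* and *Etv5* were lower with VS-4718 (log2 difference −0.64, edgeR adjusted p = 4.43e-16; −0.92, adjusted p = 2.7e-19), and *Dusp5* and *Phlda1* were lower with the PROTAC (0.36 and 0.61). *Dusp6* and *Spry4*, lowered by both, did not pass the test between them (95% intervals −0.083 to 0.12 and −0.23 to 0.38).

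At 0.1 μM, GSK215 and BSJ-04-0146 differed in 5 of the 10 genes (22.5% of all genes). *Etv4*, *Etv5*, *Spry4* and *Dusp4* were lower with GSK215 (log2 difference −0.78, standard error 0.0487, edgeR adjusted p = 2.12e-15 for *Etv4*; −0.73, adjusted p = 1.15e-12 for *Etv5*; −0.75, adjusted p = 0.00069 for *Spry4*; −0.69, adjusted p = 8.08e-12 for *Dusp4*). *Spry1* was higher with GSK215 (0.30, edgeR adjusted p = 1.14e-05). *Dusp5*, lowered by both, did not pass the test although every GSK215 library lay above every BSJ-04-0146 library (log2 difference 0.25, 95% interval 0.036 to 0.47, edgeR adjusted p = 0.0881). For *Dusp6*, *Spry2*, *Spred1* and *Phlda1* the 95% intervals were −0.20 to 0.020, −0.16 to 0.092, −0.21 to −0.012 and −0.19 to 0.021. *Spred1* passed without BSJ-04-0146 replicate 3 (edgeR adjusted p = 0.0387, and 0.0387 to 0.48 across the alternatives). Summed SC markers were at 235 to 247 CPM with GSK215 and 213 to 233 CPM with BSJ-04-0146, summed fibroblast markers at 1631 to 1684 and 1334 to 1410 CPM, and summed macrophage markers at 6.20 to 7.88 and 7.90 to 9.34 CPM. None of these ranges overlapped, and their part in the differences was not tested. Across doses no test was made. VS-4718 at 1 μM and GSK215 at 0.1 μM left *Etv4* at 48.7 ± 3.09 and 40.9 ± 1.44 CPM and *Etv5* at 27.6 ± 0.505 and 24.2 ± 0.661 CPM, while *Dusp5* was at 10.6 ± 0.841 and 8.59 ± 0.677 CPM, *Spry1* at 54.4 ± 2.73 and 79.0 ± 2.55 CPM and *Phlda1* at 69.2 ± 4.84 and 47.0 ± 2.32 CPM (SD, n = 3).

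**Figure D4:**
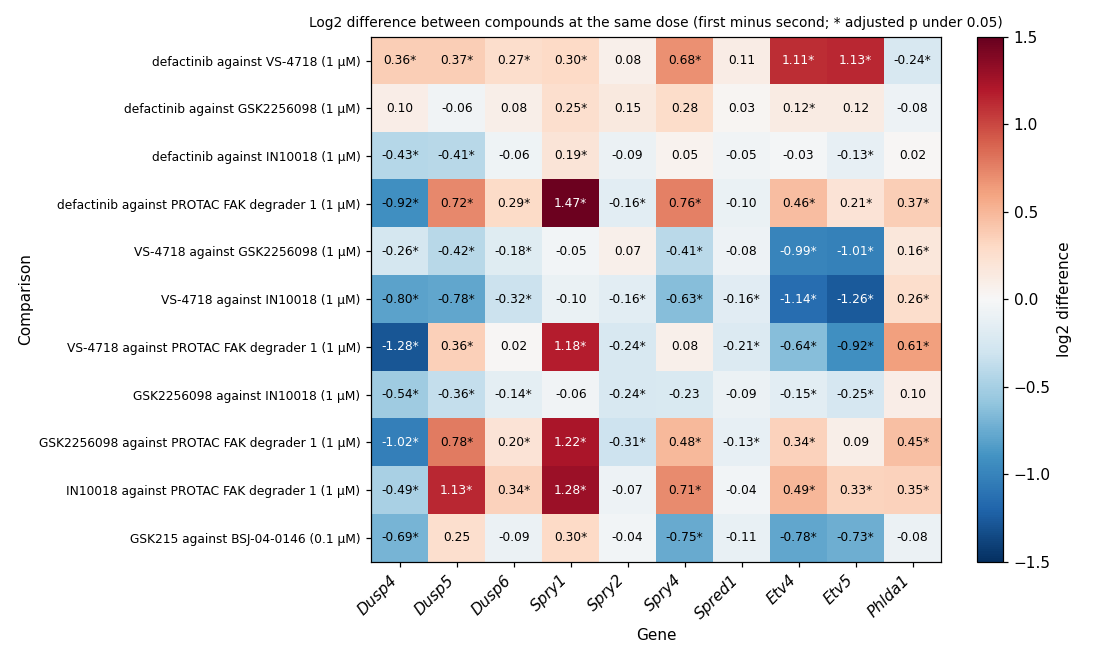
Log2 difference between compounds at the same dose for the 10 genes, first compound minus second, with the value in each cell and an asterisk at an adjusted p under 0.05. Between VS-4718 and the other 3 kinase inhibitors the largest differences are those of *Etv4* and *Etv5*, and in the 4 rows with PROTAC FAK degrader 1 *Spry1* or *Dusp4* has the largest.

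Other genes of the pathway were read from 4 lists. Of 18 related negative regulators, 17 were tested. GSK215 and BSJ-04-0146 each raised 4 and lowered 8, PROTAC FAK degrader 1 raised 6 and lowered 6, VS-4718 raised 4 and lowered 5, defactinib raised 3 and lowered 8, GSK2256098 lowered 3 and IN10018 raised 2. Set against the share of all tested genes, the share of the list lowered was 47.1% against 27.2% with GSK215, 47.1% against 26.9% with BSJ-04-0146, 35.3% against 32.7% with PROTAC FAK degrader 1, 29.4% against 18.9% with VS-4718, 47.1% against 11.0% with defactinib, 17.6% against 6.09% with GSK2256098 and 0% against 6.85% with IN10018. The share raised was 23.5% against 27.4% with GSK215, 23.5% against 27.7% with BSJ-04-0146, 35.3% against 34.1% with PROTAC FAK degrader 1, 23.5% against 20.4% with VS-4718, 17.6% against 11.4% with defactinib, 0% against 6.36% with GSK2256098 and 11.8% against 6.44% with IN10018. *Ier3*, an immediate early gene and ERK substrate, fell most with GSK215 (−1.52 in log2) and rose with IN10018 (0.41). *Dusp9*, another cytoplasmic ERK phosphatase, fell with the 3 PROTACs (−1.48, −1.25 and −1.25 for PROTAC FAK degrader 1, GSK215 and BSJ-04-0146) and less with VS-4718 (−0.57), defactinib (−0.49) and GSK2256098 (−0.34). *Dusp8*, which acts on JNK and p38, fell with BSJ-04-0146 (−1.40), GSK215 (−1.15) and defactinib (−0.40) and rose with PROTAC FAK degrader 1 (0.33). *Dusp1*, an immediate early phosphatase of several MAP kinases, instead rose with VS-4718 (0.57), BSJ-04-0146 (0.40), GSK215 (0.27) and IN10018 (0.25) and fell with defactinib (−0.35). *Dusp7*, a cytoplasmic ERK phosphatase, rose most with GSK215 (0.49), and *Nf1*, the RAS inhibitor neurofibromin, with PROTAC FAK degrader 1 (0.48). *Spred2* fell with PROTAC FAK degrader 1 (−0.24) and GSK215 (−0.14) only. Median log2 fold changes of the list were between −0.17 (GSK215) and 0.012 (PROTAC FAK degrader 1). The highest single value was 1.17 with PROTAC FAK degrader 1 and 0.94 with GSK215, in genes not named here.

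Among 20 genes of the cascade itself, all tested, GSK215 lowered 12 and raised 4, BSJ-04-0146 lowered 10 and raised 6, PROTAC FAK degrader 1 raised 9 and lowered 6, VS-4718 raised 6 and lowered 6, GSK2256098 lowered 4 and raised 1, IN10018 raised 4 and lowered 1, and defactinib lowered 2 and raised 1. The share of these 20 that was lowered, set against that of all genes, was 60% against 27.2% with GSK215, 50% against 26.9% with BSJ-04-0146, 30% against 32.7% with PROTAC FAK degrader 1, 30% against 18.9% with VS-4718, 10% against 11.0% with defactinib, 20% against 6.09% with GSK2256098 and 5% against 6.85% with IN10018. That raised was 20% against 27.4% with GSK215, 30% against 27.7% with BSJ-04-0146, 45% against 34.1% with PROTAC FAK degrader 1, 30% against 20.4% with VS-4718, 5% against 11.4% with defactinib, 5% against 6.36% with GSK2256098 and 20% against 6.44% with IN10018. *Mapk3* (ERK1) rose with PROTAC FAK degrader 1 (0.85), BSJ-04-0146 (0.51), GSK215 (0.27), VS-4718 (0.22) and IN10018 (0.17). *Rps6ka2*, a kinase activated by ERK, rose with PROTAC FAK degrader 1 (1.39) and fell with GSK215 (−0.78), BSJ-04-0146 (−0.63) and VS-4718 (−0.56). The scaffold gene *Ksr1* rose most with PROTAC FAK degrader 1 (0.73), *Hras* fell most with it (−0.77), and *Map2k1* (MEK1) fell most with GSK215 (−0.53).

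Of 20 ERK-responsive transcripts, 19 were in the count table and 17 were tested. GSK215 lowered 12 and raised 2, BSJ-04-0146 lowered 11 and raised 2, VS-4718 lowered 9 and raised 4, PROTAC FAK degrader 1 lowered 8 and raised 8, defactinib lowered 6 and raised 2, GSK2256098 lowered 5 and raised 1, and IN10018 raised 5 and lowered 2. Lowered genes made up 70.6% against 27.2% with GSK215, 64.7% against 26.9% with BSJ-04-0146, 47.1% against 32.7% with PROTAC FAK degrader 1, 52.9% against 18.9% with VS-4718, 35.3% against 11.0% with defactinib, 29.4% against 6.09% with GSK2256098 and 11.8% against 6.85% with IN10018, the second value being the share of all genes. Raised genes made up 11.8% against 27.4% with GSK215, 11.8% against 27.7% with BSJ-04-0146, 47.1% against 34.1% with PROTAC FAK degrader 1, 23.5% against 20.4% with VS-4718, 11.8% against 11.4% with defactinib, 5.88% against 6.36% with GSK2256098 and 29.4% against 6.44% with IN10018. The median log2 fold change was −0.46 with BSJ-04-0146, −0.34 with GSK215, −0.24 with VS-4718 and −0.21 with PROTAC FAK degrader 1. *Ccnd1*, encoding cyclin D1, fell with GSK215 (−0.92), BSJ-04-0146 (−0.72), PROTAC FAK degrader 1 (−0.67) and VS-4718 (−0.51). *Fosl1*, the AP-1 subunit FRA1, fell most with PROTAC FAK degrader 1 (−1.37), as did *Plaur*, the urokinase receptor (−1.75), and *Hbegf*, a ligand of the EGF receptor (−1.23). The immediate early gene *Egr1* went the other way, rising with GSK215 (1.22), PROTAC FAK degrader 1 (0.59), VS-4718 (0.52) and BSJ-04-0146 (0.35). *Junb* rose most with PROTAC FAK degrader 1 (0.77), and *Myc* rose with it (0.42) and fell with BSJ-04-0146 (−0.62) and GSK215 (−0.60). The highest log2 fold change among the tested transcripts was 2.86 with PROTAC FAK degrader 1 and 1.38 with GSK215, in genes not named here.

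Of 15 other ETS factors, 13 were tested, and the lowest log2 fold change among them was −0.89, for *Elk3* with PROTAC FAK degrader 1. *Etv1*, the third PEA3 family member, fell with VS-4718 (−0.36, edgeR adjusted p = 5.6e-05) and did not pass the test with GSK215 (log2 fold change 0.013, 95% interval −0.13 to 0.16, edgeR adjusted p = 0.891), and rose with PROTAC FAK degrader 1 (0.48), BSJ-04-0146 (0.43) and defactinib (0.20). VS-4718 raised 6 of the 13 and lowered 3, GSK215 raised 3 and lowered 6, BSJ-04-0146 raised 5 and lowered 6, PROTAC FAK degrader 1 raised 6 and lowered 5, defactinib raised 2 and lowered 1, GSK2256098 raised 1 and IN10018 lowered 1. Among these factors the lowered share, beside that of all genes, was 46.2% against 27.2% with GSK215, 46.2% against 26.9% with BSJ-04-0146, 38.5% against 32.7% with PROTAC FAK degrader 1, 23.1% against 18.9% with VS-4718, 7.69% against 11.0% with defactinib, 0% against 6.09% with GSK2256098 and 7.69% against 6.85% with IN10018. The raised share was 23.1% against 27.4% with GSK215, 38.5% against 27.7% with BSJ-04-0146, 46.2% against 34.1% with PROTAC FAK degrader 1, 46.2% against 20.4% with VS-4718, 15.4% against 11.4% with defactinib, 7.69% against 6.36% with GSK2256098 and 0% against 6.44% with IN10018. With each gene taken once, at its largest call, increases were led by *Ets2* with PROTAC FAK degrader 1 (1.07), *Elf1* with GSK215 (1.02) and *Elk1* with BSJ-04-0146 (0.59). Decreases other than that of *Elk3* were led by *Elk4* (−0.43) and *Elf4* (−0.41) with BSJ-04-0146. The highest log2 fold change among the tested factors was 1.01 with BSJ-04-0146 and 0.75 with VS-4718.

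**Figure D5:**
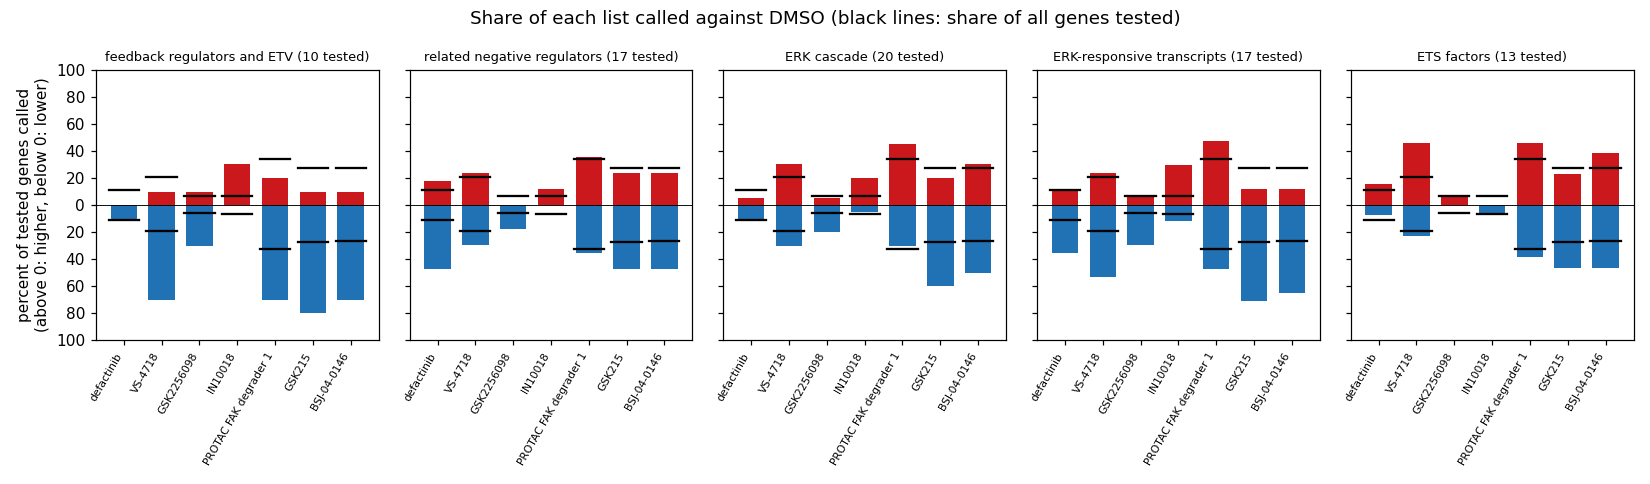
Share of the tested genes of each list called higher (above 0, red) and lower (below 0, blue) against DMSO for the 7 drugs. Black lines give the same share of all tested genes, and the lower bars of the 10 feedback regulators and *ETV* factors pass them with VS-4718, GSK2256098 and the 3 PROTACs.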

How the data were processed

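RNA of MS03 cells (8 groups of 3 samples) was sequenced after poly(A) selection. The authors deposited whole-number read counts for each Ensembl gene and library, without normalization. The submitters' processing notes name Trimmomatic 0.36, STAR 2.5.2b, featureCounts of Subread 1.5.2 and GRCm38, and the annotation release is not given in the sources used here. Columns were assigned to samples by the library numbers in the labels. BSJ-04-0146 is written BSJ-04-146 in the paper.

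edgeR 4.0.16 in R 4.3.3 was run on the counts (TMM, filterByExpr, glmQLFit and glmQLFTest) in 1 model of 24 libraries with 16 residual degrees of freedom, on 16070 of 49315 genes. *P* values were two-sided, with Benjamini-Hochberg adjustment and a threshold of 0.05. CPM were computed from TMM-scaled library sizes, and log2(CPM + 4) is the scale of the paper. Replicates all come from 1 line, and the labels call them biological without saying whether they were separate cultures, so the spread between them may be technical. They differed by more than counting noise (chi-square per degree of freedom 1.73 to 8.62 over 24 pairs), and none was counted as a copy. Coordinates and exon lengths are from GENCODE M21.

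The genes, the 4 pathway lists and the tests were chosen with earlier results of these data known. Named genes were the 10, those with the largest calls of each list with a mean of at least 5 CPM (up to 3 per direction), 9 set genes (*Dusp1*, *Spred2*, *Etv1*, *Egr1*, *Fosl1*, *Ccnd1*, *Mapk3*, *Ptk2* and 1 that is not reported here), and, for each of the 10 with a log2 fold change of at least 1 in size, the 2 genes most like it. Alternatives were DESeq2 1.42.0, library totals, limma-trend (limma 3.58.1) on log2(CPM + 4), no filter, a replicate block, only the 6 libraries compared, and leaving out each replicate.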

Additional observations from a re-analysis of the deposited data

How the results depend on the processing

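Of the 42 calls of the 10 genes against DMSO, 30 were kept in all 12 alternatives, and of the 75 calls between compounds at the same dose, 69 were. No called value changed sign. The calls of *Etv4* and *Etv5* with VS-4718 and the 3 PROTACs, of *Dusp5* and *Spry4* with VS-4718, PROTAC FAK degrader 1 and GSK215, and of *Spry1* and *Dusp4* with PROTAC FAK degrader 1 were among those kept. *Spry4* had the lowest depth, at 45 to 176 counts per library.

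The number of the 10 genes called with IN10018 was 3, and 1 with DESeq2 (1 to 3 without a replicate). With defactinib it was 1, and 0 with library totals (0 to 1 without a replicate), and with GSK2256098 4 (1 to 4 without a replicate). Between defactinib and GSK2256098 it was 2, and 1 with limma-trend, without the filter and with the replicate block (1 to 2 without a replicate). For ETS factors with IN10018 the count was 1, and 0 with DESeq2, library totals, limma-trend, no filter and the replicate block (0 to 2 without a replicate). For genes of the cascade it was 3 with defactinib and 5 with library totals, 5 with GSK2256098 and 9 with only the 6 libraries compared (2 to 5 without a replicate), and 5 with IN10018 (3 to 4 without a replicate). Without a replicate, the ERK-responsive transcripts called with IN10018 numbered 4 to 6 (7 in all), the related negative regulators 1 to 3 (2), and the ETS factors 1 to 4 with defactinib (3) and 0 to 1 with GSK2256098 (1). The share of all genes called moved with the setting too. With library totals, 12.8% of all genes were called higher and 8.46% lower for defactinib, against 11.4% and 11.0% with TMM. For IN10018 these were 7.45% and 5.97%, against 6.44% and 6.85%. In the fits without a replicate given above for GSK2256098 and IN10018, fewer of all genes were called higher than with all libraries. The list counts are therefore not read as results about the lists. The cause of their shifts was not tested, beyond the fewer samples of a fit without a replicate.

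Same-numbered replicates did not deviate together (median correlation of deviations −0.0030, −0.023 and 0.0058 for numbers 1 to 3, and 0.012 between different numbers), so the replicate block was not read as a pairing. It ended 1 of the 42 calls, that of *Dusp5* with IN10018 (adjusted p = 0.0553).

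Values that changed direction were all uncalled. With library totals these were *Spred1* with GSK2256098 (log2 fold change 0.0030) and GSK215 (0.11, edgeR adjusted p = 0.0455, and 0.0455 to 0.914 across the 12 alternatives), and *Dusp6* between VS-4718 and PROTAC FAK degrader 1 (−0.024). Log2 values crossed 0 when a replicate was left out for *Dusp5* defactinib against GSK2256098 (−0.11 to 0.0018), *Dusp6* VS-4718 against PROTAC FAK degrader 1 (−0.0054 to 0.037), *Etv4* defactinib against IN10018 (−0.060 to 0.00036), *Etv5* defactinib against DMSO (−0.031 to 0.053), *Phlda1* defactinib against IN10018 (−0.00058 to 0.035) and *Spred1* GSK215 against DMSO (−0.047 to 0.036), and likewise for *Spry1* BSJ-04-0146 against DMSO (−0.028 to 0.068), *Spry2* GSK215 against BSJ-04-0146 (−0.093 to 0.022), *Spry4* IN10018 against DMSO (−0.090 to 0.15), *Spry4* defactinib against DMSO (−0.041 to 0.20) and *Spry4* defactinib against IN10018 (−0.023 to 0.14), with the lowest and highest in parentheses.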
